A study of Caenorhabditis elegans with 8 samples.

Results

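Transcripts of 10 innexin genes (inx-14, inx-22, inx-21, inx-8, inx-9, inx-3, inx-12, inx-13, inx-6 and inx-10) were followed in RNA of whole Caenorhabditis elegans. They were picked by WormBase symbol among 46739 genes counted, and the innexin family list used here holds 25 genes in all, so 15 other innexins served as their surroundings. The 10 were chosen by name with the fold changes and tests of 5-Ph-IAA against ethanol already known. No measured threshold goes with that choice, and the values of that contrast are therefore given as a description.

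A single strain was used, described in the labels as a neuronal DAF-15 AID worm, in which DAF-15 carries an auxin-inducible degron. Under this system an added plant F-box protein recognises a tagged protein once an auxin is supplied and the tagged protein is degraded. DAF-15 is the worm counterpart of Raptor, a subunit of the TORC1 growth kinase. The 4 libraries of the 5-Ph-IAA group came from worms given that auxin analog, and the 4 libraries of the ethanol group from worms given the solvent, both from the L4 stage for 24 h with collection on day 1 of adulthood after feeding on E. coli OP50. Both groups carry the degron, and as no strain without it was included, effects of the compound itself and of losing neuronal DAF-15 cannot be told apart here, and the promoter behind the neuronal restriction is not given in the sources used here.

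Innexins are the gap junction proteins of invertebrates. Each crosses the membrane several times, a ring of them forms a hemichannel, and hemichannels of touching cells dock into a channel that passes ions and small molecules between the cells. In the adult hermaphrodite gonad, germline innexins (inx-14, inx-21 and inx-22) face somatic innexins of the sheath cells (inx-8 and inx-9), and these junctions are needed for germ cells to proliferate and for oocytes to stay arrested until sperm signal. Other innexins couple cells of the epidermis, the excretory system, the pharynx and the nervous system.

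Between 7745664 and 9709094 reads fell in genes per 5-Ph-IAA library, and between 7354710 and 10893322 per ethanol library. All 10 innexins passed the filter on low counts, as did 12021 genes in all. Transcript of daf-15 lay between 111.9 and 127.0 CPM (the read count scaled to a common library size, with TMM factors) with 5-Ph-IAA and between 111.4 and 127.2 CPM with ethanol, which does not check the treatment because the degron acts on protein. Libraries varied in the summed level of 7 body wall muscle markers, from 2015 to 3045 CPM with 5-Ph-IAA and from 2115 to 3009 CPM with ethanol. Markers of germline, intestine, muscle and epidermis were all present, while 6 of 7 matched sperm genes averaged under 1 CPM.

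Measured per exon length, the gonad genes inx-14, inx-8 and inx-22 led the whole innexin family. Averaged over all 8 libraries, inx-14 stood at 144.7 RPKM (CPM divided by exon length in kilobases), inx-8 at 103.2 RPKM and inx-22 at 54.9 RPKM. The next 5 places were held by inx-3 (29.96 RPKM), inx-12 (29.5 RPKM), inx-21 (26.3 RPKM), inx-13 (22.9 RPKM) and inx-9 (20.6 RPKM). Lower down, inx-10 was in place 16 of 25 with 4.69 RPKM and inx-6 in place 18 with 1.87 RPKM. Neighbours in the order of the 10 genes were separated in every library for inx-14 over inx-8, inx-8 over inx-22, inx-22 over inx-3, inx-21 over inx-13, inx-9 over inx-10 and inx-10 over inx-6. Ranges over the 8 libraries overlapped for inx-3 and inx-12 (inx-3 higher in 5 of 8 libraries), inx-12 and inx-21 (inx-12 higher in 7 of 8) and inx-13 and inx-9 (inx-13 higher in 6 of 8), so these neighbours cannot be ranked beyond their spread.

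**Figure D1:**
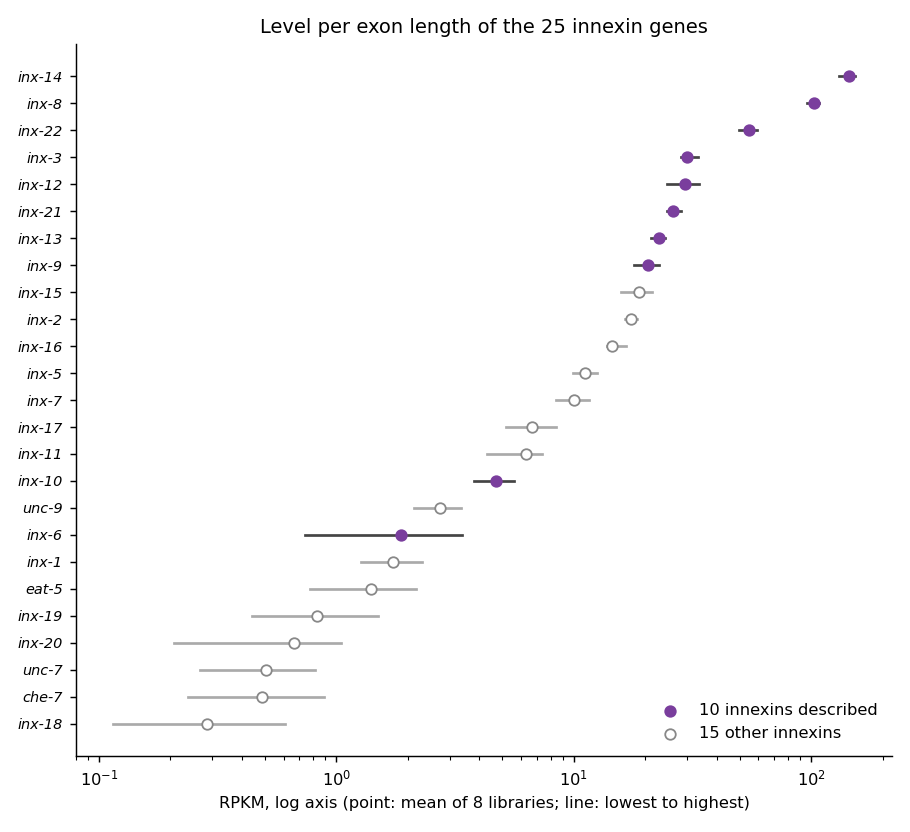
Level per exon length (RPKM, log axis) of the 25 innexin genes, with points for the mean of 8 libraries and lines from the lowest to the highest library. The top 8 places are filled by the genes described here, from inx-14 at 144.7 RPKM to inx-9 at 20.6 RPKM, while inx-10 and inx-6 lie at 4.69 and 1.87 RPKM.

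The 10 genes together made up 82.6% ± 0.501 of the summed innexin RPKM in 5-Ph-IAA libraries and 82.2% ± 0.977 in ethanol libraries (SD, n = 4 each). The 5 gonad genes alone held 65.7% ± 0.973 of that sum with 5-Ph-IAA and 65.7% ± 1.71 with ethanol. Of this, the 3 germline genes took 42.7% ± 0.518 with 5-Ph-IAA and 42.2% ± 1.84 with ethanol, and the 2 sheath genes 23.0% ± 1.14 with 5-Ph-IAA and 23.5% ± 0.850 with ethanol. For each of these shares the libraries of the groups overlapped. Because RNA came from whole animals, fewer cells of a type and less RNA per cell cannot be told apart in any level given here.

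With edgeR's quasi-likelihood model and Benjamini-Hochberg adjustment at 0.05, none of the 10 genes passed (edgeR adjusted p = 0.999 for each), beside 0.0998% of tested genes. None passed with the replicate number as a block either, where 0.732% of tested genes did, nor with DESeq2 (0.241%), limma-voom (0.108%) or blocked DESeq2 (0.200%). At an unadjusted p under 0.05 there were 0 of the 10 in edgeR, against 4.41% of tested genes, and 1 with the block (inx-22), against 6.91%. Groups of 4 libraries overlapped for all 10 genes, and 2.65% of tested genes had groups that did not overlap. Of the 10 log2 fold changes (5-Ph-IAA over ethanol) 8 were above 0, where 49.7% of all tested genes were. Their median was 0.049, beside -0.00094 over all tested genes, and their median size regardless of sign was 0.069, beside 0.072. Since this contrast was known when the genes were picked, nothing is read from these counts.

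**Figure D2:**
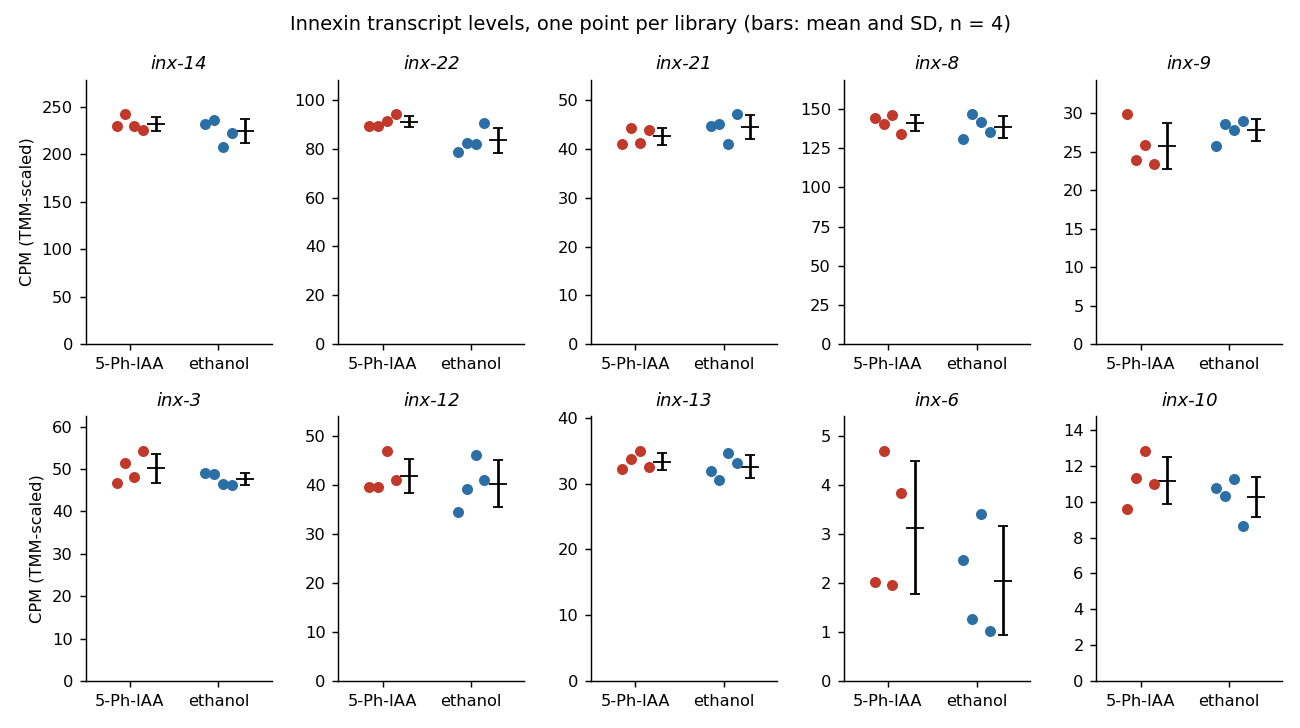
Level of each gene in CPM, with a point per library (5-Ph-IAA red, ethanol blue) and bars for mean and SD (n = 4 per group), on axes that start at 0. Both groups overlap in all 10 panels, and inx-6 has the widest relative scatter, from 1.97 to 4.70 CPM with 5-Ph-IAA and from 1.03 to 3.42 CPM with ethanol.

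The germline gene inx-14 (WBGene00002136, chromosome I: 7350309 to 7352235, minus strand) is the partner that both other germline innexins need. Its level was 230.0, 242.2, 229.5 and 225.4 CPM in 5-Ph-IAA replicates 1 to 4, and 232.3, 236.0, 207.2 and 222.4 CPM in ethanol replicates 1 to 4. Ethanol replicate 3 was the lowest and 5-Ph-IAA replicate 2 the highest, with the other libraries of both groups mixed between them. The log2 fold change was 0.046 (SE 0.052), a 1.03-fold difference with a 95% interval from 0.958 to 1.11. On the opposite strand kbrl-1 shares 78 exonic bases with inx-14 and averaged 97.7 CPM with 5-Ph-IAA and 102.3 CPM with ethanol. As the strand setting of the counting is unknown here, reads in such shared stretches, also of the genes named further on, cannot be assigned.

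The gene inx-22 (WBGene00002144, I: 3608518 to 3611844, plus strand) acts with inx-14 in holding back oocyte maturation when sperm are absent. It had 89.2, 89.5, 91.2 and 94.1 CPM in 5-Ph-IAA replicates 1 to 4, and 78.8, 82.5, 81.9 and 90.5 CPM in ethanol replicates 1 to 4. Ethanol replicates 1 to 3 lay below every 5-Ph-IAA library and ethanol replicate 4 lay among them. The log2 fold change was 0.12 (SE 0.060), or 1.09-fold with a 95% interval from 0.999 to 1.19, and 0.13 (SE 0.056) with the block. It was higher with 5-Ph-IAA in 4 of 4 numbered pairs, which 7.17% of tested genes also were, yet missed the threshold both ways (edgeR adjusted p = 0.624 in the blocked fit, 0.999 otherwise).

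Its neighbour inx-21 (WBGene00002143, I: 3611942 to 3618317, plus strand) works with inx-14 in germ cell proliferation and begins 97 bases beyond the end of inx-22. It had 41.1, 44.4, 41.2 and 43.9 CPM in 5-Ph-IAA replicates 1 to 4, and 44.8, 45.1, 41.1 and 47.1 CPM in ethanol replicates 1 to 4. The groups overlapped and leaned the other way from inx-22, with a log2 fold change of -0.065 (SE 0.078) and a 95% interval of the fold from 0.855 to 1.07.

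The ratio of inx-22 to inx-21, taken per exon length, was 2.26, 2.10, 2.31 and 2.24 in 5-Ph-IAA replicates 1 to 4, and 1.83, 1.91, 2.08 and 2.002 in ethanol replicates 1 to 4. Every 5-Ph-IAA library thus lay above every ethanol library, at a mean of 2.23 ± 0.0893 with 5-Ph-IAA and 1.96 ± 0.107 with ethanol (SD, n = 4 each). Among 3103 pairs of neighbouring tested genes on the same strand within 2000 bases of each other, 2.35% had ratios whose groups did not overlap. The ratio was looked at after the levels were known, so it is a description without a test. For the other neighbouring pairs the groups overlapped.

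**Figure D3:**
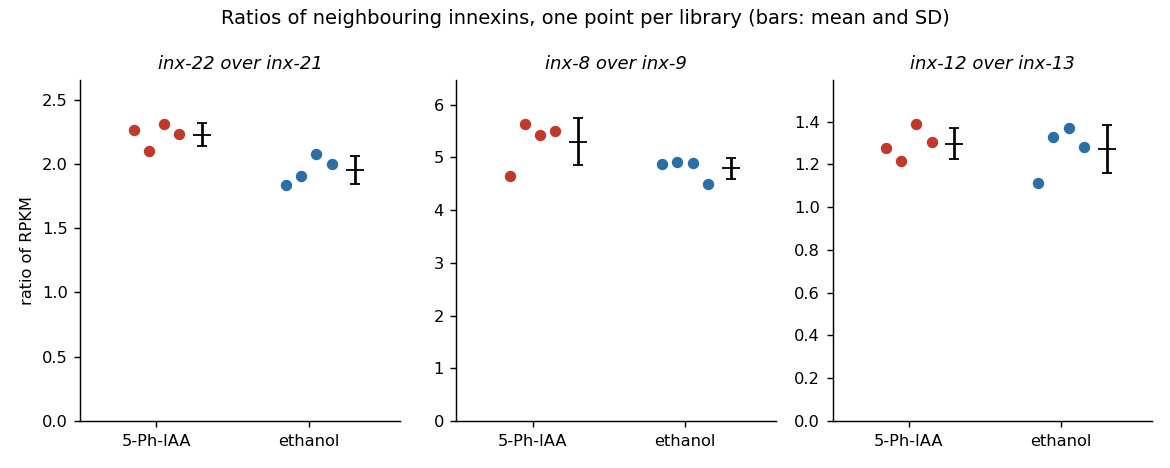
Ratio of RPKM between neighbouring innexins, with a point per library (5-Ph-IAA red, ethanol blue) and bars for mean and SD (n = 4 per group). For inx-22 over inx-21 the 5-Ph-IAA libraries run from 2.10 to 2.31 and the ethanol libraries from 1.83 to 2.08, while the groups overlap for the other 2 ratios.

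Of the sheath genes, inx-8 (WBGene00002130, IV: 11673843 to 11675635, plus strand) and inx-9 (WBGene00002131, IV: 11676354 to 11678497, plus strand) are tandem paralogs with overlapping roles in the somatic gonad, 718 bases apart. The level of inx-8 was 144.3, 140.2, 145.9 and 134.1 CPM in 5-Ph-IAA replicates 1 to 4, and 130.9, 146.6, 141.8 and 135.2 CPM in ethanol replicates 1 to 4. The groups covered nearly the same span, with a log2 fold change of 0.025 (SE 0.054) and a 95% interval of the fold from 0.942 to 1.10. The level of inx-9 was 29.9, 23.9, 25.8 and 23.4 CPM in 5-Ph-IAA replicates 1 to 4, and 25.8, 28.6, 27.8 and 28.9 CPM in ethanol replicates 1 to 4.

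For inx-9 the highest library and the 2 lowest were all from the 5-Ph-IAA group. Its log2 fold change was -0.11 (SE 0.102), with a 95% interval of the fold from 0.802 to 1.07. Per exon length inx-8 exceeded inx-9 by 5.30 ± 0.448 times with 5-Ph-IAA and 4.79 ± 0.204 times with ethanol (SD, n = 4 each), and the libraries of the groups overlapped. As close paralogs, these genes are measured only through reads that tell them apart, so the split between them is uncertain. A gene on the opposite strand, ZK792.4, shares 62 exonic bases with inx-9 and averaged 2.90 CPM with 5-Ph-IAA and 2.74 CPM with ethanol.

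Markers of the tissues around these junctions were compared in the same way. Of 12 germline and oocyte markers, 0 passed in edgeR with or without the block, in DESeq2 or in limma-voom, and 0 had an unadjusted p under 0.05. Their summed level ran from 8260 to 8476 CPM with 5-Ph-IAA and from 7700 to 8719 CPM with ethanol. The translational repressor gene gld-1 averaged 1483 ± 64.3 CPM with 5-Ph-IAA and 1471 ± 77.5 CPM with ethanol, and the eggshell component gene cpg-1 averaged 1743 ± 26.3 CPM with 5-Ph-IAA and 1688 ± 157.3 CPM with ethanol (SD, n = 4 each). Likewise 0 of 7 matched markers of gonadal sheath and spermatheca passed in those tests, with 0 at an unadjusted p under 0.05, and their sum ran from 349.0 to 402.9 CPM with 5-Ph-IAA and from 344.9 to 405.8 CPM with ethanol. Among these fln-1, a filamin gene, averaged 314.9 ± 20.5 CPM with 5-Ph-IAA and 312.3 ± 24.9 CPM with ethanol, and so made up most of the sum. The troponin I gene tni-1 averaged 18.97 ± 3.02 CPM with 5-Ph-IAA and 19.3 ± 1.90 CPM with ethanol. The scarcer fkh-6 and ceh-18, named after their values were seen, ran from 3.181 to 5.898 and from 11.84 to 14.62 CPM with 5-Ph-IAA. With ethanol they ran from 3.031 to 4.185 and from 9.368 to 12.78 CPM. Of the 7 markers, 3 had a log2 fold change above 0 and 4 below 0.

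A further list held genes of oocyte maturation around the sheath junctions, including the G protein and protein kinase A pathway and the OMA proteins. Its lim-7, ceh-18, acy-4 and ipp-5 were also among the sheath and spermatheca markers above, so both lists partly count the same genes. Of 13 tested, 0 passed in edgeR with or without the block, in DESeq2 or in limma-voom, 0 had an unadjusted p under 0.05, and the median log2 fold change was -0.014. The oocyte zinc finger genes oma-2 and oma-1 averaged 443.6 ± 21.4 and 270.9 ± 6.29 CPM with 5-Ph-IAA, and 434.2 ± 15.1 and 268.7 ± 15.1 CPM with ethanol (SD, n = 4 each). Of 11 tested genes for apical junctions and innexin regulators, 0 passed in the same tests, with a median log2 fold change of -0.018. Of these 0 had an unadjusted p under 0.05, and 1 with the block, against 6.91% of all tested genes with the block. That gene, dlg-1, which encodes a junction scaffold protein, was named after its value was seen and averaged 26.9 ± 4.49 CPM with 5-Ph-IAA and 22.8 ± 3.62 CPM with ethanol (edgeR adjusted p = 0.632 in the blocked fit, 0.999 otherwise). The membrane-cytoskeleton linker gene erm-1 averaged 317.6 ± 7.75 CPM with 5-Ph-IAA and 324.9 ± 17.7 CPM with ethanol, and the cadherin gene hmr-1 162.0 ± 5.74 CPM with 5-Ph-IAA and 167.0 ± 13.9 CPM with ethanol.

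Outside the gonad, inx-3 (WBGene00002125, X: 5996156 to 5998243, plus strand) is used widely, in the embryo, the epidermis and the pharynx. It had 46.7, 51.4, 48.2 and 54.3 CPM in 5-Ph-IAA replicates 1 to 4, and 49.0, 48.8, 46.5 and 46.4 CPM in ethanol replicates 1 to 4. The ethanol libraries fell inside the span of the 5-Ph-IAA libraries but for replicates 3 and 4, just under it. In the fit inx-3 had a log2 fold change of 0.074 (SE 0.075), with a 95% interval of the fold from 0.945 to 1.17.

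The neighbours inx-13 (WBGene00002135, I: 3748523 to 3753958, minus strand) and inx-12 (WBGene00002134, I: 3755488 to 3759039, minus strand) serve the excretory canal and epidermis, where loss of either is lethal to larvae. The level of inx-12 was 39.7, 39.5, 46.9 and 41.0 CPM in 5-Ph-IAA replicates 1 to 4, and 34.4, 39.2, 46.0 and 41.0 CPM in ethanol replicates 1 to 4. In both groups replicate 3 was the highest, and the lowest library was ethanol replicate 1. The log2 fold change was 0.053 (SE 0.091), with a 95% interval of the fold from 0.910 to 1.18. Without 5-Ph-IAA replicate 3 or ethanol replicate 1 it stood at -0.0059 and -0.010, on the other side of 0.

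The level of inx-13 was 32.2, 33.7, 35.0 and 32.5 CPM in 5-Ph-IAA replicates 1 to 4, and 31.96, 30.6, 34.8 and 33.1 CPM in ethanol replicates 1 to 4. Here too replicate 3 was the highest of each group. In the fit inx-13 had a log2 fold change of 0.030 (SE 0.087), with a 95% interval of the fold from 0.902 to 1.16. The ratio of inx-12 to inx-13 per exon length was 1.30 ± 0.0725 with 5-Ph-IAA and 1.27 ± 0.112 with ethanol (SD, n = 4 each).

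Of 8 tested epidermal markers 0 passed in edgeR with or without the block, in DESeq2 or in limma-voom, with a median log2 fold change of -0.027. Of these 0 had an unadjusted p under 0.05, and 1 with the block (col-19), against 6.91% of all tested genes with the block. The sum of all 11 epidermal markers ran from 4444 to 5748 CPM with 5-Ph-IAA and from 5157 to 5661 CPM with ethanol, and 3 of the 11 averaged under 1 CPM. The adult cuticle collagen genes col-140 and col-19 averaged 3339 ± 370.3 and 1642 ± 198.2 CPM with 5-Ph-IAA, and 3473 ± 189.4 and 1782 ± 48.8 CPM with ethanol. Of 5 tested markers of the excretory canal and duct 0 passed in the same tests, with a median log2 fold change of 0.093 and 0 at an unadjusted p under 0.05 in either edgeR fit. The canal chloride channel gene exc-4 averaged 28.4 ± 1.76 CPM with 5-Ph-IAA and 26.7 ± 1.78 CPM with ethanol, and the aquaporin gene aqp-8 16.3 ± 2.58 CPM with 5-Ph-IAA and 15.9 ± 3.39 CPM with ethanol (SD, n = 4 each).

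The scarcest of the 10 was inx-6 (WBGene00002128, IV: 12746584 to 12749721, plus strand), whose channels couple pharyngeal muscle cells so that they contract together. It rested on 20, 37, 15 and 35 reads in 5-Ph-IAA replicates 1 to 4, and on 18, 11, 27 and 11 reads in ethanol replicates 1 to 4. In CPM these were 2.02, 4.70, 1.97 and 3.84 with 5-Ph-IAA, and 2.48, 1.27, 3.42 and 1.03 with ethanol. The groups overlapped, with replicates 2 and 4 high among 5-Ph-IAA libraries and low among ethanol libraries, and 2 of 4 numbered pairs were higher with 5-Ph-IAA. The log2 fold change of 0.65 (SE 0.373) was the largest of the 10, at 1.57-fold, with a 95% interval of the fold from 0.915 to 2.70.

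The log2 fold change of inx-6 ran between 0.40 (without ethanol replicate 4) and 1.02 (without ethanol replicate 3) when single libraries were left out. In the blocked fit it ran between 0.27 (without replicate 2) and 1.17 (without replicate 3) when a numbered pair was left out. A difference of the size seen was not resolved from the spread of the libraries. Some pharyngeal muscle genes also varied between libraries, while tni-4 ran only from 40.9 to 44.25 CPM with 5-Ph-IAA and 37.2 to 41.6 CPM with ethanol. The pharyngeal myosin gene myo-2 had 21.8, 32.7, 22.2 and 33.7 CPM in 5-Ph-IAA replicates 1 to 4, and 25.4, 13.7, 25.5 and 27.5 CPM in ethanol replicates 1 to 4, so that replicates 2 and 4 were high with 5-Ph-IAA for both genes, while ethanol replicate 4 was the lowest library for inx-6 and not for myo-2. The sum of 10 pharyngeal markers ran from 106.5 to 136.7 CPM with 5-Ph-IAA and from 91.2 to 119.3 CPM with ethanol, with 7 tested, 6 of these above 0 in log2 fold change, a median of 0.26, 0 past in edgeR with or without the block, DESeq2 or limma-voom, and 0 at an unadjusted p under 0.05. Among them ceh-22, phat-1 and phat-2 averaged under 1 CPM, and phat-1 had no read in any ethanol library. The most abundant of these markers were tni-4, a pharyngeal troponin I gene, at 41.8 ± 1.63 CPM with 5-Ph-IAA and 39.9 ± 1.96 CPM with ethanol, and the myosin gene myo-1 at 29.3 ± 7.27 CPM with 5-Ph-IAA and 25.8 ± 4.79 CPM with ethanol (SD, n = 4 each). The body wall myosin gene unc-54 had 641.4, 1049, 795.0 and 952.0 CPM in 5-Ph-IAA replicates 1 to 4. In ethanol replicates 1 to 4 it had 859.9, 639.6, 858.6 and 1053 CPM. Replicates 2 and 4 with 5-Ph-IAA were thus high and ethanol replicate 2 lowest for unc-54 as for myo-2. The genes unc-54 and myo-2 differed in ethanol replicate 4, which was the highest library for unc-54 but not for myo-2. Over the 7 body wall muscle markers the median log2 fold change was 0.010, beside 0.26 for the 7 tested pharyngeal markers. The part of pharyngeal or other muscle RNA content in the inx-6 values was not tested.

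The gene inx-10 (WBGene00002132, V: 9204661 to 9207477, minus strand) had 9.61, 11.3, 12.8 and 10.97 CPM in 5-Ph-IAA replicates 1 to 4, and 10.8, 10.4, 11.3 and 8.68 CPM in ethanol replicates 1 to 4. The lowest library was ethanol replicate 4 and the highest 5-Ph-IAA replicate 3, with the other libraries mixed between them. In the fit inx-10 had a log2 fold change of 0.13 (SE 0.146), with a 95% interval of the fold from 0.886 to 1.34. On the opposite strand the aspartyl protease gene asp-2 shares 74 exonic bases with inx-10 and was far more abundant, at 533.1 CPM with 5-Ph-IAA and 558.4 CPM with ethanol. The part of asp-2 reads in the inx-10 counts was not tested.

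For 9 of the 10 genes, all but inx-6, the 95% interval of the difference lay within 1.5-fold in either direction. A miss of the threshold does not show equal levels. Taken gene by gene, these intervals from the fit without the block give differences compatible with the spread of these libraries. That spread may be technical, so the intervals are no firm bounds.

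**Figure D4:**
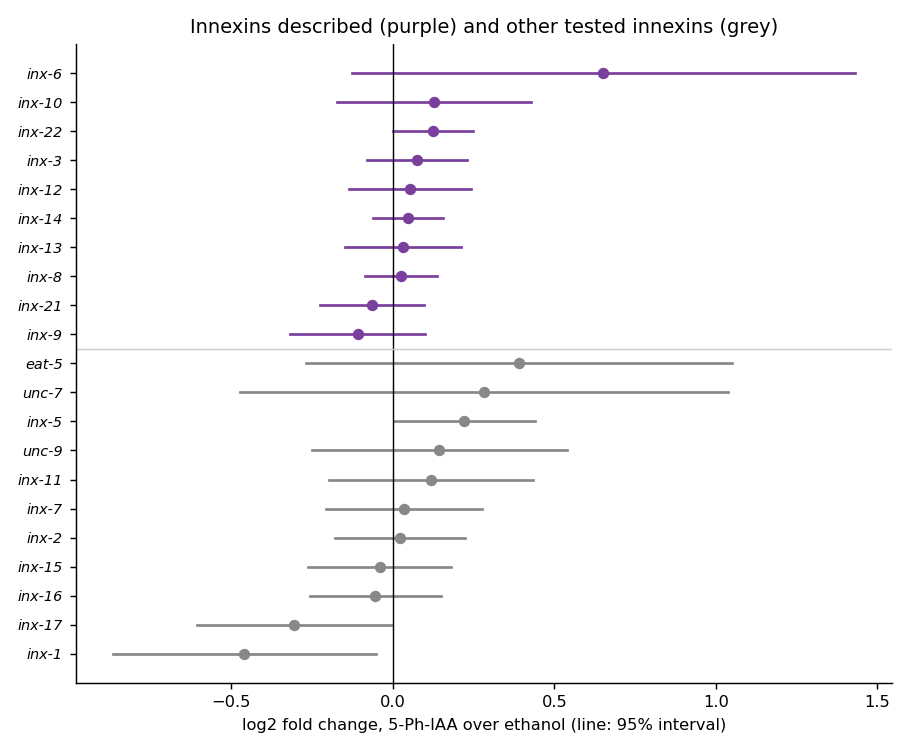
Log2 fold change (5-Ph-IAA over ethanol, horizontal axis) with its 95% interval for the 10 innexins described (purple) and the 11 other tested innexins (grey). In this fit without the block, intervals of all 10 purple genes include 0, that of inx-22 only just (lower end -0.000995). The interval of inx-6, centred on 0.65, is the widest among them.

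The precision differed between the genes, in rough order of their level. The biological coefficient of variation, edgeR's estimate of the relative spread between replicates beyond counting error, was 5.39% for inx-8, 5.53% for inx-14 and 5.69% for inx-22. It was 6.60% for inx-3, 6.74% for inx-21, 7.25% for inx-13, 8.06% for inx-12 and 8.46% for inx-9. These 8 lay under the median of 9.45% over all tested genes, while inx-10 (10.65%) and inx-6 (28.7%) lay above it. Each estimate is drawn by edgeR towards a trend with level, so a fall with level is partly built in.

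**Figure D5:**
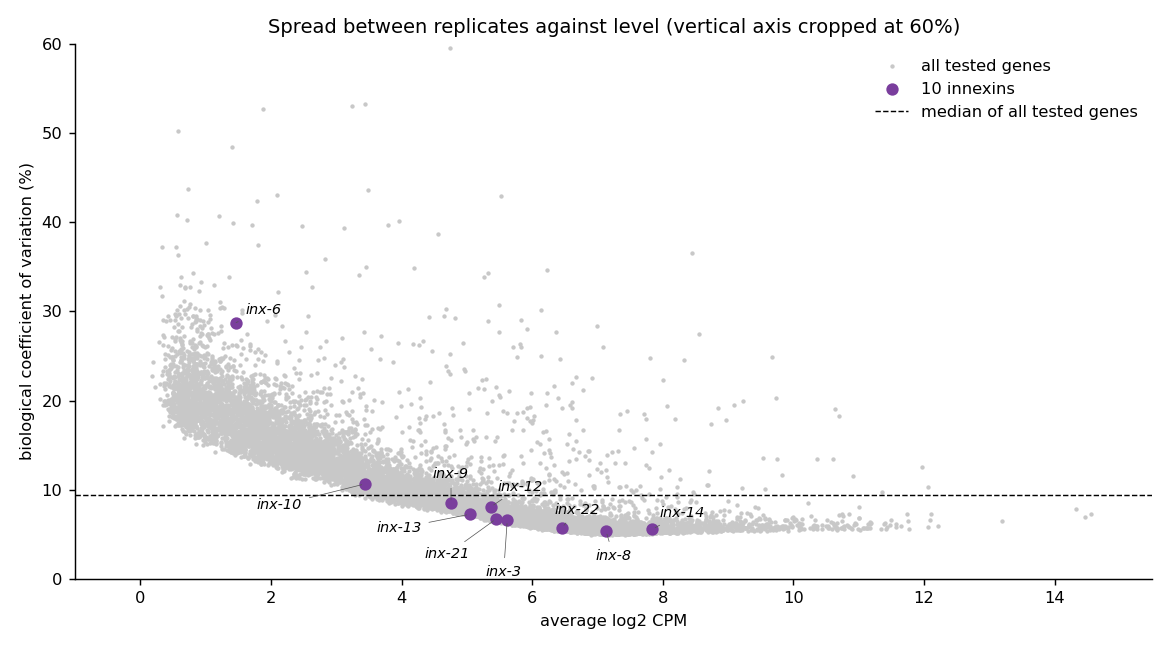
Biological coefficient of variation (percent) against average log2 CPM for all tested genes (grey) and the 10 innexins (purple), with a dashed line at the overall median of 9.45%; 7 genes above 60% fall outside the plot. Spread broadly falls with level, from inx-6 at 28.7% to inx-8 at 5.39%, though not in strict order. The estimates are drawn towards such a trend by edgeR.

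The 10 genes did not move from library to library as a block. Deviations of log2 CPM from the group means over the 8 libraries had correlations between -0.842 (inx-3 with inx-9) and 0.729 (inx-12 with inx-13) over the 45 pairs of genes, with a median of -0.098 and 19 of 45 above 0. The 3 pairs of neighbours were among the positive ones, with r = 0.729 for inx-12 and inx-13, 0.601 for inx-8 and inx-9, and 0.486 for inx-21 and inx-22, beside 0.597 for inx-14 and inx-21. All points share their library, its depth and its scaling, and over 8 libraries such values describe these samples only.

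By the same measure, the tested genes most like inx-14 were Y39A3A.4 (r = 0.982) and Y73B6BL.29 (r = 0.978). Those most like inx-8 were K12H4.7 (r = 0.984) and fbxa-219 (r = 0.974). Those most like inx-22 were WBGene00008534, which has no symbol in the annotation, (r = 0.985) and ceh-100 (r = 0.961). With 8 libraries and 12021 genes to choose from, 4 of these 6 averaged under 10 CPM, so these likenesses are a description of the libraries.

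Of the 15 other innexins 11 were tested and 0 passed in edgeR with or without the block, in DESeq2 or in limma-voom. Their log2 fold changes ran from -0.46 to 0.39 with a median of 0.033. An unadjusted p under 0.05 held for 3 of the 11 in either edgeR fit. Over all tested genes it held for 4.41% without the block and 6.91% with it. The gene inx-5 had 21.45, 19.96, 20.6 and 20.1 CPM in 5-Ph-IAA replicates 1 to 4, and 18.7, 17.8, 17.1 and 16.9 CPM in ethanol replicates 1 to 4, the only tested innexin whose groups did not overlap. Groups did not overlap for 2.65% of all tested genes. For inx-5 the difference came to 0.22 on the log2 scale with an SE of 0.106 (edgeR adjusted p = 0.719 in the blocked fit, 0.999 otherwise). The gene inx-1 averaged 4.51 ± 0.693 CPM with 5-Ph-IAA and 6.23 ± 0.946 CPM with ethanol, a log2 difference of -0.46 with an SE of 0.198 (edgeR adjusted p = 0.608 in the blocked fit, 0.999 otherwise). The gene inx-17 averaged 10.5 ± 1.75 CPM with 5-Ph-IAA and 12.98 ± 1.48 CPM with ethanol, a log2 difference of -0.31 with an SE of 0.146 (edgeR adjusted p = 0.597 in the blocked fit, 0.999 otherwise).

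Some innexins had low levels in whole-worm RNA, among them unc-9 and unc-7, which act in neurons, the tissue named for the degron. They do not stand for all innexins of neurons. The genes unc-9 and unc-7, which act in locomotion, averaged 6.22 ± 0.791 and 2.04 ± 0.911 CPM with 5-Ph-IAA. With ethanol they averaged 5.71 ± 1.11 and 1.68 ± 0.588 CPM (SD, n = 4 each). The genes inx-18, inx-19, inx-20 and che-7 did not reach the filter, with 2 to 22 reads per library. Of 11 neuronal markers 0 passed in edgeR with or without the block, in DESeq2 or in limma-voom. An unadjusted p under 0.05 held for 1 (rab-3) and, with the block, for 2 (rab-3 and ric-4). Over all tested genes it held for 4.41% and, with the block, 6.91%. The log2 fold change was below 0 for 7 of the 11, with a median of -0.090. The synaptic vesicle GTPase gene rab-3 averaged 7.51 ± 1.52 CPM with 5-Ph-IAA and 10.1 ± 2.18 CPM with ethanol, a log2 difference of -0.41 with an SE of 0.180 (edgeR adjusted p = 0.425 in the blocked fit, 0.999 otherwise). The SNAP-25 gene ric-4 averaged 14.8 ± 2.14 CPM with 5-Ph-IAA and 17.7 ± 2.28 CPM with ethanol, a log2 difference of -0.25 with an SE of 0.131 (edgeR adjusted p = 0.698 in the blocked fit, 0.999 otherwise). Both were singled out after their values were seen, and their groups overlapped. The summed level of the 11 markers ran from 418.7 to 445.2 CPM with 5-Ph-IAA and from 437.8 to 460.2 CPM with ethanol. Of the most abundant markers, the synaptobrevin gene snb-1 averaged 170.5 ± 6.69 CPM with 5-Ph-IAA and 172.8 ± 7.74 CPM with ethanol, and the neuropeptide convertase gene egl-3 71.3 ± 3.67 CPM with 5-Ph-IAA and 68.8 ± 6.15 CPM with ethanol.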

How the data were processed

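The deposited files hold whole-number counts of reads per gene for 8 libraries. Tools named per the submitters' processing notes, with no roles, are TopHat2, HTSeq, DESeq2 and FastQC 0.11.5; which genome build, annotation and strand setting made the deposited counts is not given in the sources used here. Per file, 5 summary lines that name no gene were left out. The line for reads that matched no gene feature held 47.74% to 48.06% of counts, and that for reads with several alignments 4.14% to 4.55%. Without the strand setting, reads outside genes and reads on the opposite strand of genes cannot be told apart in the first of these lines. Symbols, coordinates (1-based, WBcel235) and exon lengths came from Ensembl release 115.

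Genes passing filterByExpr (12021) were scaled with TMM factors (0.986 to 1.02) and fitted with edgeR 4.0.16 (robust quasi-likelihood, two-sided, Benjamini-Hochberg over all tested genes, threshold 0.05; R 4.3.3). The SE is the absolute log2 fold change over the root of the F statistic, and the 95% interval uses that SE. Alternatives were DESeq2 1.42.0, limma-voom (3.58.1), upper quartile factors, other filters, libraries left out and a replicate block. Libraries of the same number deviated together in log2 CPM (prior count 2), with correlations from 0.1002 to 0.147. For different numbers these ran from -0.099 to 0.0103. Deviations were from group means, so positive values for the same number push the others down, and these add no separate evidence. The numbers were taken as pairs on the same-number values, but only in the blocked fits and the counts of numbered pairs. Log2 fold changes, SEs and intervals are from the fit without the block unless named as blocked. The labels do not say whether replicates are separate cultures; p-values then cover only the scatter among these libraries, which may be technical. Members and lists were chosen with earlier results of these data known, and all 10 members are named. Other innexins are named where the unadjusted p was under 0.05, and of other lists the 2 most abundant genes. Named outside that rule are the flagged inx-15, the tested unc-9 and unc-7, and the untested inx-18, inx-19, inx-20 and che-7. So are lim-7, ceh-18, acy-4 and ipp-5, which are in both the oocyte maturation and the sheath list. Exceptions chosen after their values were seen are myo-2, unc-54 and the genes named as such. Of the listed symbols 3 could not be matched to a single gene.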

Additional observations from a re-analysis of the deposited data

Results flagged for a closer look

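Of 50 groups of 4 libraries examined (25 innexins, 2 groups each), 1 held a library far from the rest, where chance gives about 1 in 20. It belonged to inx-15, at 26.38 CPM in ethanol replicate 3 and between 22.3 and 22.9 CPM in the other ethanol libraries.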

How the results depend on the processing

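None of the 10 innexins passed under any of the 19 alternatives, with a lowest adjusted p of 0.280. Of 189 log2 fold changes refitted for them, 184 kept their direction. The other 5 were close to 0: inx-12 without 5-Ph-IAA replicate 3 (-0.0059) and without ethanol replicate 1 (-0.010), inx-8 without ethanol replicate 1 (-8.4e-05) and with the block without replicate 1 (-0.012), and inx-13 with the block without replicate 2 (-0.0034). Leaving out single libraries moved inx-12 up to 0.118 and inx-8 up to 0.053. The stricter filter (mean CPM of at least 5) removed inx-6. Over all genes, 10 were higher and 2 lower with 5-Ph-IAA; these counts were 57 and 31 with the replicate block, 47 and 15 without a filter, 5 and 0 with the stricter filter, 23 and 6 with DESeq2, and 19 and 5 with blocked DESeq2. Lower genes numbered 1 with upper quartile factors and 0 with limma-voom. Leaving out single libraries gave 6 to 17 higher and 0 to 4 lower genes, and leaving out a pair under the block 33 to 57 higher (46 without replicate 1, 42 without replicate 4) and 18 to 50 lower (36 without replicate 1, 21 without replicate 3). The cause of these moves was not tested. The block changed no call among the innexins or the lists. Of the 10, inx-6 had the fewest reads (11 to 37 per library) and the widest spread beyond counting error (28.7%); the parts of each in its wide interval were not separated.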
